A study of Mus musculus with 5 samples.

Results

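Described here are regulatory T cells (Treg) of the lymph nodes that drain the mouse heart. Among them, the focus is on cells in which no transcript of 3 activation genes was detected. A single pooled droplet library was made from antigen-experienced, CD44-high T cells sorted from mediastinal lymph nodes of C57BL/6 mice aged 2, 6, 12 and 18 months. Each condition was stained with its own hashtag antibody (an oligonucleotide-tagged antibody that marks a cell's sample of origin), and 8 hashtags were present. The sorted cells were then mixed at unequal ratios and run with a 5′ kit that also reads T cell receptors. The sources used here do not say which hashtag belongs to which age, how many mice stand behind one, or whether mice were pooled, so the 8 hashtag samples are given side by side by number and are not read as ages.

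Members were chosen from their transcripts, counted as unique molecular identifiers (UMIs, 1 per captured RNA molecule). Of 13016 barcodes, 10192 were kept: they had at least 200 genes, at most 10% mitochondrial UMIs and a top hashtag of at least 10 UMIs and 3 times the second. Foxp3 was seen in 1116 kept cells, of which 868 had no UMI of Cd8a, Cd8b1 or Cd79a. The 486 of these without a UMI of Ccr8, Tnfrsf9 or Il1r2 are called resting Treg below, and the 382 with at least 1 of the 3 are called activated Treg. In a cell read less deeply all 3 are more easily missed, so the resting group can include activated Treg. The main comparison group was 1678 kept cells with a UMI of Cd4 and none of Foxp3, Cd8a, Cd8b1 or Cd79a (Foxp3-negative Cd4 cells). Since all groups were cut from 1 library by their own UMIs, every ratio between them is a description with a 95% interval for counting error, and no p-value is given.

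Foxp3 is the transcription factor that fixes Treg identity, and Treg restrain other lymphocytes through contact molecules such as CTLA-4, through cytokines and by taking up interleukin-2 with the high-affinity receptor chain CD25 (Il2ra). Within lymph nodes, resting or central Treg recirculate between blood and node using CCR7 and S1PR1. Antigen and costimulation turn them into effector Treg that carry TNF receptor family members such as 4-1BB (Tnfrsf9), GITR (Tnfrsf18) and OX40 (Tnfrsf4), and the chemokine receptor CCR8.

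Resting Treg made up 4.77% of kept cells (95% exact binomial interval 4.36 to 5.20), 19.1% (17.6 to 20.7) of the 2546 cells with Cd4 or Foxp3 and no Cd8a, Cd8b1 or Cd79a, and 56.0% (52.6 to 59.3) of the 868 Foxp3 cells. Hashtag1 to Hashtag6 had shares of kept cells of 5.71%, 5.42%, 5.89%, 5.71%, 7.53% and 6.63%. Hashtag7 had 1.96% (1.40 to 2.67) and Hashtag8 had 2.93% (2.22 to 3.801), and neither interval reached that of any of the other 6 samples. The same 2 samples were lowest among cells with Cd4 or Foxp3, at 8.80% and 11.9% against 20.7% to 28.2%. The resting share of Foxp3 cells ran from 43.7% in Hashtag8 to 65.7% in Hashtag1, and Hashtag7, at 53.4%, lay within the range of the others. Fewer resting Treg and less Foxp3 RNA per cell cannot be told apart in such shares. Members per sample numbered 71, 42, 62, 61, 93, 63, 39 and 55 in hashtag order. The median UMIs per member ran from 1891 in Hashtag4 to 2695 in Hashtag6, and stood at 2033 and 2568 in Hashtag7 and Hashtag8. With every cell thinned to 1000 UMIs before the choice, the share was 1.46% and 2.31% in Hashtag7 and Hashtag8 and 3.77% to 6.73% in the other samples.

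**Figure D1:**
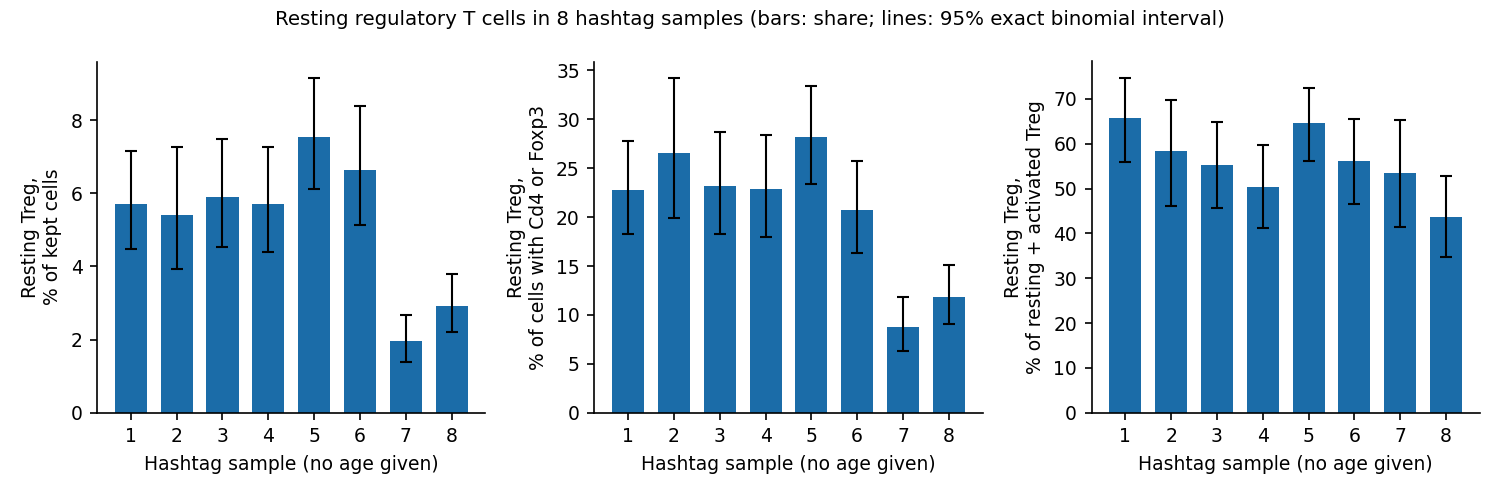
Share of resting Treg in each of the 8 hashtag samples, in percent of kept cells, of cells with Cd4 or Foxp3, and of resting plus activated Treg. Bars are shares and lines are 95% exact binomial intervals. Hashtag7 and Hashtag8 are the lowest by the first 2 measures, at 1.96% and 2.93% of kept cells.

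Treg genes that did not choose the cells are given next. Il2ra, Ikzf4 and Nrp1 came with the rule as markers, with earlier results of these data known. Their direction is therefore no independent evidence for the label. Summed over cells and scaled to counts per 1e+06 UMIs of the group (CPM), Il2ra was at 235 CPM in members, 180 in activated Treg and 36.3 in Foxp3-negative Cd4 cells. Ikzf4 (Eos, a partner of Foxp3) was at 90.4 against 24.5 CPM in Foxp3-negative Cd4 cells, and Nrp1 (neuropilin-1, a surface marker of thymus-derived Treg) at 258 against 144 CPM. Each of these transcripts was caught in few cells: after thinning to 1000 UMIs, 17.6% of members had Il2ra, 10.7% had Ikzf4 and 24.2% had Nrp1, against 3.36%, 3.08% and 14.9% of Foxp3-negative Cd4 cells (unthinned, 31.3%, 19.8% and 41.2% against 7.27%, 7.27% and 31.3%). Foxp3 itself can reach a droplet as free RNA. A Foxp3 UMI was found in 3.86% (3.25 to 4.54) of 3578 Cd8 cells and 1.86% (1.02 to 3.104) of 752 B cells, which should lack it, at a median of 3900 and 2940 UMIs per cell. Members had a median of 2381 UMIs, fewer than the 3376 of activated Treg and the 3213 of Foxp3-negative Cd4 cells. A Cd3 chain was detected in 472 of the 486 members and a Cd4 UMI in 185. Cd44, the gene of the sorted protein, was at 86.6 CPM in members and 107 CPM in Foxp3-negative Cd4 cells.

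A single Foxp3 UMI, the least the rule accepts, was all that 275 of the 486 members (56.6%) had; 94 had 2 and 117 had 3 or more. Against Foxp3-negative Cd4 cells, just outside the rule, the cells with 1 UMI already differed in Ikzf2 (Helios, a Treg transcription factor). Ikzf2 was at 539 CPM (95% exact binomial interval 482 to 600) against 249 CPM (237 to 262). The level was 579 and 538 CPM at 2 and at 3 or more UMIs. Ctla4 likewise stood at 344, 392 and 365 CPM against 136 CPM. These 2 genes were thus as high in cells with 1 Foxp3 UMI as in cells with several. Il2ra was graded, at 157 (127 to 191), 210 (158 to 274) and 358 (305 to 418) CPM against 36.3 CPM. Other genes were lower at 2 and at 3 or more Foxp3 UMIs than at 1. Pdcd1, the checkpoint receptor PD-1, was at 256 (218 to 300), 171 (124 to 229) and 58.2 CPM against 347 CPM in Foxp3-negative cells, and the chemokine gene Ccl5 at 593, 233 and 161 CPM against 2204 CPM. Tcf7, the TCF-1 factor of naive, memory and follicular T cells, was at 238 (201 to 280), 85.4 (53.5 to 129) and 114 (85.1 to 150) CPM against 386 CPM. Klf2, a factor of resting T cells, did not follow them, at 385, 555 and 544 CPM. Myeloid and class II transcripts were similar at 1 and 2 Foxp3 UMIs and lower at 3 or more. H2-Aa was at 485, 466 and 13.4 CPM and Lyz2, a myeloid lysozyme, at 76.7, 66.03 and 15.7 CPM. H2-Aa was found in 6.5%, 1.23% and 2.68% of thinned cells, so its levels rest on few cells. The part of these transcripts in the other values was not tested. Cells with 1, 2 and 3 or more UMIs had a median of 1884, 2484 and 3544 UMIs in all, so the number of Foxp3 UMIs went with depth. How many cells with 1 UMI carry free Foxp3 RNA was not tested.

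**Figure D2:**
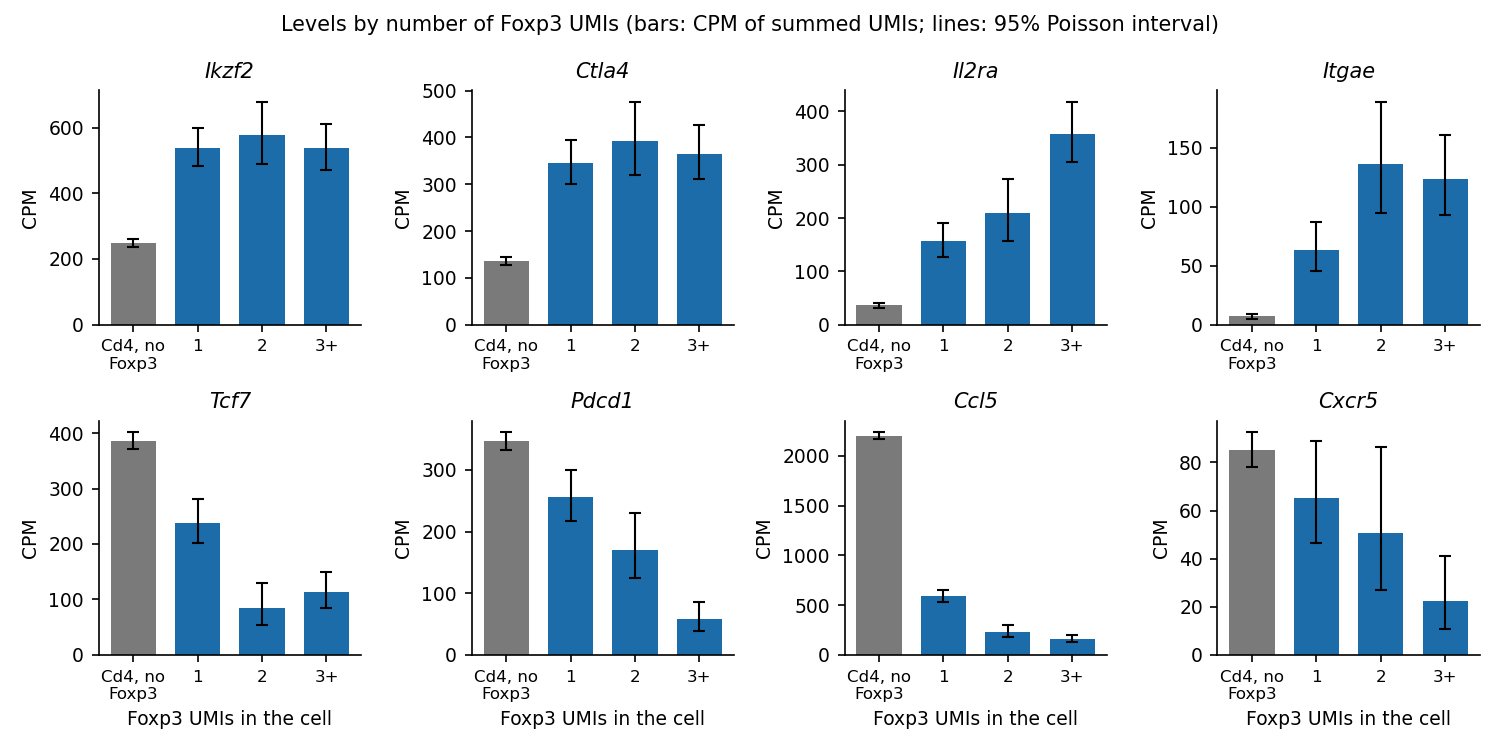
Levels of 8 genes in CPM of summed UMIs, in Foxp3-negative Cd4 cells (grey) and in resting Treg with 1, 2 and 3 or more Foxp3 UMIs (blue). Lines are 95% exact binomial intervals of the UMI share, which the figure title calls Poisson. Ikzf2 and Ctla4 are level across the 3 blue bars, Il2ra runs from 157 to 358 CPM, and Pdcd1 runs from 256 down to 58.2 CPM.

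Against Foxp3-negative Cd4 cells, resting Treg had a broad Treg programme, little effector cytokine RNA, few follicular helper transcripts and few cell cycle transcripts. Of 10552 genes with at least 20 UMIs over both groups, 598 (5.67%) were at least 1.5-fold higher in members with an interval that left out equality, and 840 (7.96%) were lower by the same rule. Hashtag7 and Hashtag8 held 370 and 338 of the 1678 Foxp3-negative Cd4 cells but 39 and 55 of the 486 members, so the groups differ in sample make-up. With the hashtags weighted alike and the pooled intervals kept, 582 genes were higher and 837 lower. Genes whose 8 hashtag values did not overlap between the groups were rarer: members were above in 48 of the 10552 (0.455%) and below in 69 (0.654%). Of 30 Treg identity genes other than Foxp3, 18 were higher and 2, Tigit and Penk, were lower; the list's median log2 ratio was 0.80, against -0.04 over all genes. The list was drawn up with earlier results of these data known, and Foxp3 chose the cells, so its direction is no independent evidence.

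Among receptors and adhesion molecules of that list, Itgae, the integrin CD103, was lowest in Hashtag7 at 52.1 CPM, with a median of 98.7 and a highest value of 169 CPM in members, while Foxp3-negative Cd4 samples ran from 2.996 to 13.4 CPM. The 2 sets of 8 values did not overlap, and the log2 ratio was 3.82 (3.32 to 4.35). Lrrc32, the GARP protein that holds latent TGF-β on Treg, ran from 49.3 to 150 CPM with a median of 76.3 in members and from 0 to 20.4 CPM in the comparison cells (log2 ratio 3.68, 3.15 to 4.24). Il2ra had a lowest, median and highest value of 167, 204 and 488 CPM against 4.49, 46.5 and 82.9 CPM, again apart in all samples, with a log2 ratio of 2.70 (2.45 to 2.95). Gpr83, a peptide receptor gene common in Treg, was at 44.8 against 9.12 CPM (2.30, 1.75 to 2.85), but its hashtag ranges overlapped. Tnfrsf18 ran from 277 to 402 CPM against 114 to 256 CPM, and its ratio was smaller at 0.92 (0.76 to 1.08). Ctla4, which strips CD80 and CD86 from antigen-presenting cells, ran from 238 to 521 CPM against 88.4 to 213 CPM, a log2 ratio of 1.41 (1.24 to 1.57). Tnfrsf4 was at 353 against 257 CPM, short of the 1.5-fold rule at 0.46. Izumo1r, the folate receptor FR4 of Treg, was at 1206 against 724 CPM (0.74, 0.65 to 0.82), with overlapping ranges.

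Of 30 Treg transcription factors other than Foxp3, 6 were higher (Ikzf2, Ikzf4, Foxo1, Foxo3, Smad3 and Prdm1) and 7 lower, with a median log2 ratio of -0.30. Foxo1, which drives Klf2 transcription, lay between 181 and 310 CPM in members and between 106 and 169 CPM in Foxp3-negative Cd4 cells, without overlap (log2 ratio 0.74, 0.54 to 0.93). Tcf7 lay the other way, from 108 to 223 CPM against 244 to 478 CPM, also without overlap (-1.22, -1.42 to -1.02). Ikzf4 ran from 10.4 CPM in Hashtag7, with a median of 91.5, to 157 CPM in Hashtag2. The Hashtag7 value rests on very few UMIs in 39 members, so it does not establish a difference among samples. Helios RNA was less spread, from 344 CPM in Hashtag7 to 712 CPM in Hashtag4, and above all comparison samples (177 to 337 CPM).

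Interleukin-2 drives Treg through STAT5, and 7 of the 18 genes listed for this pathway were higher in members: Il2ra, Il2rb, Il15ra, Cish, Socs1, Socs2 and Pim1. Il2 itself, which conventional T cells make, was the 1 lower gene: no UMI was found in members of any hashtag, against 18.1 CPM in Foxp3-negative Cd4 cells (log2 ratio at or below -2.99 with 3 UMIs, over all members, as the floor of a count of 0). Pim1, a STAT5-induced kinase, ran from 180 to 331 CPM against 64.9 to 113 CPM, with no overlap and a log2 ratio of 1.32 (1.12 to 1.52). Cish and Socs2, inhibitors that cytokine signals switch on, had log2 ratios of 1.54 (1.25 to 1.81) and 1.91 (1.48 to 2.33), each with overlapping hashtag ranges. Il2rb, the shared β chain of the interleukin-2 and interleukin-15 receptors, was at 408 against 260 CPM.

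Suppressive mediators were divided, with 7 of 19 higher and 8 lower. The higher genes were Ctla4, Lrrc32, Nrp1, Ebi3 (a subunit of interleukin-35), Entpd1 (the ectonucleotidase CD39), Areg (amphiregulin, a repair factor) and Fgl2 (a secreted inhibitor of dendritic cells, 58.5 against 13.4 CPM, log2 ratio 2.13). Checkpoint receptors were among the lower ones. Lag3, a class II binding receptor, ran from 7.87 to 112 CPM against 49.3 to 601 CPM (log2 ratio -2.47, -2.87 to -2.10), and Pdcd1 from 31.3 to 328 CPM against 117 to 607 CPM (-1.01, -1.21 to -0.81). Both ranges overlapped, and Hashtag8 was the highest sample for both genes in both groups. Tigit was at 151 against 229 CPM (-0.60), and with activated Treg added to the members it turned to 0.49.

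None of 17 effector cytokine and cytotoxicity genes was higher in members and 14 were lower, with a median log2 ratio of -2.78 (3 of the 17 had no UMI in members and stand at the 3-UMI floor). Ifng had 3 UMIs in all members, 2.28 against 33.2 CPM (log2 ratio -3.86, -6.15 to -2.30). Cd40lg, the helper ligand for B cells and dendritic cells, ran from 31.5 to 110 CPM against 118 to 291 CPM, without overlap (-1.46, -1.77 to -1.15). Ccl5, Nkg7 and Gzmk belong to cytotoxic and memory T cells, and their levels hung on the sample. In members Ccl5 was at 1720 CPM in Hashtag7 but had a median of 293 CPM, and the comparison cells of Hashtag7 were also the highest of their group at 7156 CPM, with a median of 967. The pooled log2 ratio of Ccl5 was -2.55 (-2.68 to -2.42), and members were lower in all 8 samples; 5 cells held 50.9% of the Ccl5 UMIs of members.

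Follicular genes were likewise low, with 11 of 12 lower and none higher (median log2 ratio -1.07). The B-zone receptor gene Cxcr5 was at 47.9 against 85.2 CPM (-0.83, -1.23 to -0.45) and the follicular repressor Bcl6 at 15.95 against 26.9 CPM. Sostdc1, a secreted antagonist made by follicular T cells, was at 37.98 against 438 CPM, but 5 cells held 82.0% of its UMIs in members. Cell cycle genes were lower in 18 of 20, and none was higher: Mki67 was at 12.9 against 82.7 CPM and Top2a at 12.2 against 108 CPM. A UMI of at least 1 of 6 cycling genes was found in 5.35% (3.52 to 7.74) of members, 11.9% (10.4 to 13.6) of Foxp3-negative Cd4 cells and 13.1% (9.87 to 16.9) of activated Treg. Thinned to 1000 UMIs, the shares were 2.04% (0.883 to 3.97), 6.16% (4.99 to 7.52) and 5.83% (3.65 to 8.78). The counts of genes depended on the filter. With the authors' own upper limit on UMIs per cell, 11 of 20 cell cycle genes were lower, with a median log2 ratio of -0.90. Over all genes at that limit, 7.01% were lower. With cells thinned to 1000 UMIs before the choice, 2 of 15 cell cycle genes were lower. At that setting 3.35% of 6715 genes were higher and 4.42% lower than in Foxp3-negative Cd4 cells, and 2.34% of 3466 genes were higher and 4.76% lower than in activated Treg.

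Among genes ranked by size with the same direction in all 8 samples, those outside the lists above included Ncmap at 74.4 against 14.9 CPM (log2 ratio 2.32), Coro2a, a coronin of the actin cytoskeleton, at 78.2 against 18.1 CPM (2.11), and Tgfbr1, a TGF-β receptor chain, at 72.2 against 22.8 CPM (1.66). Il4ra, the interleukin-4 receptor chain, was at 88.1 against 31.6 CPM, and the stress-induced Sesn1 at 110 against 36.3 CPM. At the low end was Spp1 (osteopontin), with 1 UMI in members against 1266 in Foxp3-negative Cd4 cells, a log2 ratio of -8.03 (-13.34 to -5.55). Tnfsf8, the CD30 ligand, ran from 22.6 to 93.0 CPM in members and from 105 to 621 CPM in the comparison cells without overlap (-2.31, -2.66 to -1.99). Penk, which encodes proenkephalin, was at 38.7 against 262 CPM, and with activated Treg added to the members its log2 ratio of -2.76 turned to 0.21.

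**Figure D3:**
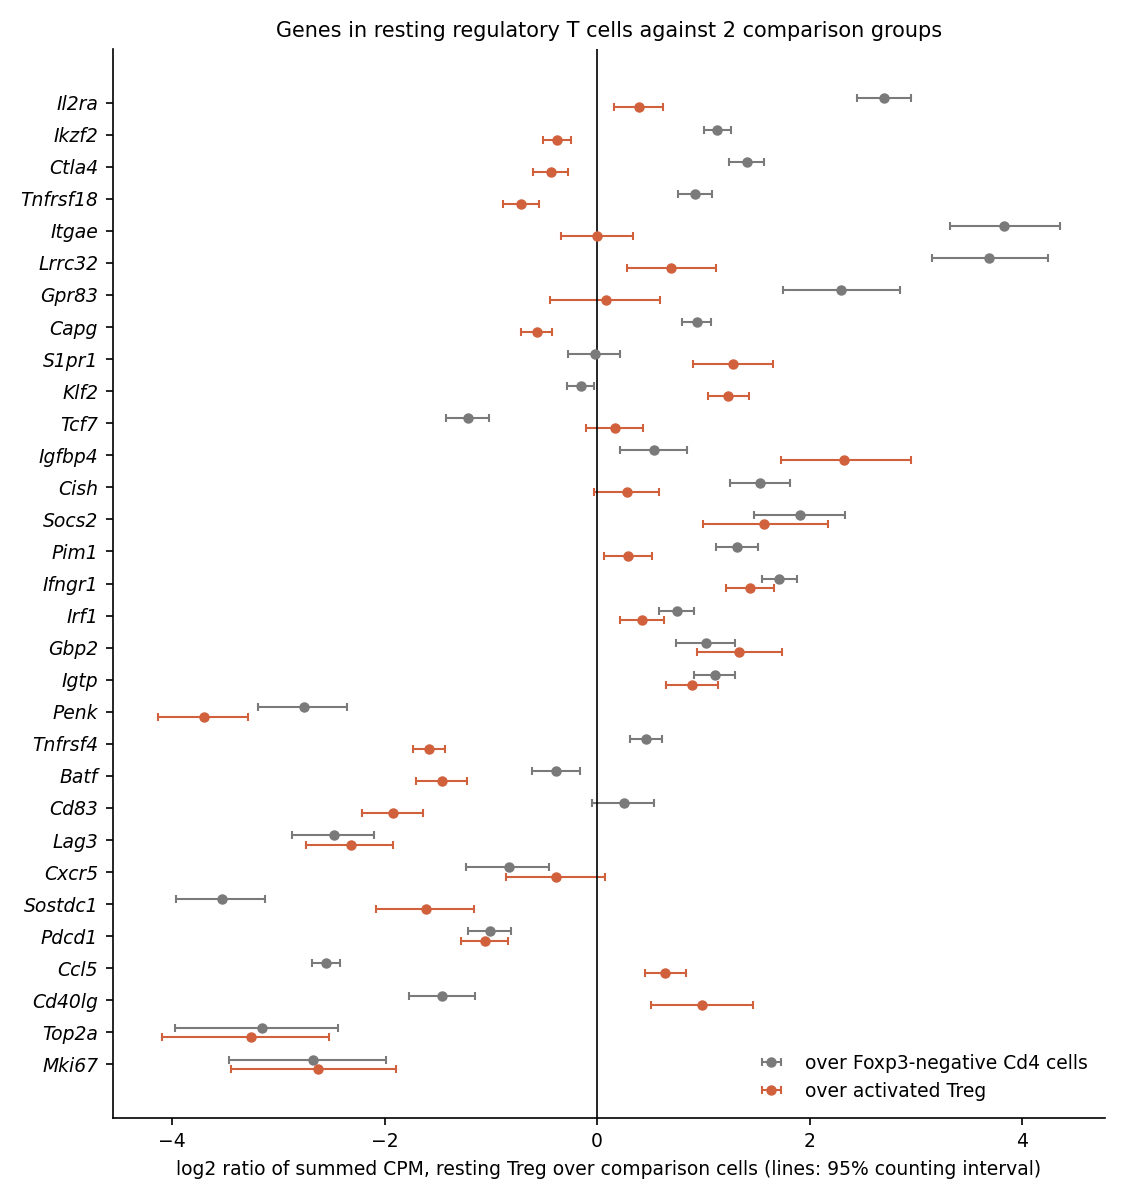
Log2 ratio of summed CPM for genes named in the text, resting Treg over Foxp3-negative Cd4 cells (grey) and over activated Treg (orange), with 95% counting intervals. Itgae, Il2ra and Ctla4 lie right of 0 in grey (3.82, 2.70 and 1.41), Socs2, Ifngr1 and Gbp2 lie right of 0 in both colours, and Penk, Lag3, Pdcd1 and Top2a lie left of 0 in both.

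The comparison with activated Treg shows what went with having no detected UMI of Ccr8, Tnfrsf9 and Il1r2, which the rule fixed. Resting Treg were also read less deeply, at a median of 2381 against 3376 UMIs, and the part of depth was not tested. Of 8979 genes measured, 578 (6.44%) were higher in resting Treg and 860 (9.58%) lower, and hashtag ranges were apart in 29 (0.323%) and 50 (0.557%). Of 19 genes of resting and recirculating T cells, 13 were higher and none lower, with a median log2 ratio of 0.72; 4 of 20 were higher against Foxp3-negative Cd4 cells, and 1, Tcf7, was lower. S1pr1, the lymph node exit receptor, was at 128, 52.8 and 130 CPM in resting, activated and Foxp3-negative cells, and its inducer Klf2 at 472 and 201 CPM in resting and activated Treg. Against activated Treg their log2 ratios were 1.27 (0.90 to 1.66) and 1.24 (1.04 to 1.43), higher in 8 of 8 samples, and against Foxp3-negative Cd4 cells they were -0.02 (-0.27 to 0.22) and -0.15 (-0.28 to -0.03). With cells thinned to 1000 UMIs before the choice, 3 of 15 genes of the list were higher than in activated Treg. Igfbp4, a naive T cell gene, was at 85.8, 17.2 and 59.3 CPM, but in members it ran from 10.4 CPM in Hashtag7 and a median of 63.6 to 246 CPM in Hashtag1. The Hashtag7 value of Igfbp4 rests on very few UMIs. Bcl2, the survival factor, was at 175 against 114 CPM in activated Treg (0.63, 0.35 to 0.91).

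Genes of activated and effector Treg were lower in 16 of 32 members of that list and higher in 1, Ccr2, leaving aside the 3 genes of the rule. Tnfrsf4 separated the groups in every sample: resting Treg ran from 287 to 465 CPM and activated Treg from 787 to 1449 CPM (log2 ratio -1.58, -1.73 to -1.44). Tnfrsf18 also did, from 277 to 402 against 445 to 806 CPM (-0.72). Batf, the transcription factor of effector Treg, ran from 73.6 to 217 against 245 to 713 CPM (-1.46, -1.70 to -1.23), and the activation antigen Cd83 from 62.3 to 162 against 228 to 669 CPM (-1.92, -2.21 to -1.64). Srgn, a granule proteoglycan, was apart as well, at 823 against 1731 CPM. Penk had the lowest ratio of the Treg identity genes, at 38.7 against 503 CPM (-3.70, -4.14 to -3.29), with 5 cells holding 56.9% of its UMIs in members. Treg identity genes were split, with 5 of 30 higher and 12 lower. Itgae was at 98.0 and 98.1 CPM, a log2 ratio of 0.00 (-0.34 to 0.34), and Il2ra, Ikzf2, Ctla4 and Nrp1 all differed by less than 1.5-fold. Ccl5 was higher in resting Treg at 376 against 241 CPM (0.64), and turned to -0.63 with at least 2 Foxp3 UMIs required in both groups. All 20 cell cycle genes were lower (median log2 ratio -2.22), whereas under the authors' limit on UMIs per cell 2 of 15 were lower and 1 higher. Over all genes under that limit, 7.22% were lower and 4.74% higher. With cells thinned before the choice, 5 of the cell cycle genes were measured and none was lower.

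Interferon response genes stood higher in resting Treg in both comparisons. Against Foxp3-negative Cd4 cells 20 of 54 were higher and 1, Ly6a, was lower (median log2 ratio 0.40), and against activated Treg 27 of 54 were higher and none lower (0.59). With cells thinned to 1000 UMIs before the choice the counts were 9 of 53 and 7 of 46, and without Hashtag1 they were 23 and 24 of 54. Over all genes, 603 and 519 were higher without Hashtag1. Ifngr1, the ligand-binding chain of the interferon gamma receptor, had a lowest, median and highest value of 201, 384 and 542 CPM in resting Treg, 101, 138 and 218 CPM in activated Treg and 67.4, 112 and 165 CPM in Foxp3-negative Cd4 cells. Resting Treg were above both groups within each of the 8 samples, and above the whole range of the Foxp3-negative cells. The log2 ratios were 1.72 (1.55 to 1.88) over Foxp3-negative Cd4 cells and 1.44 (1.21 to 1.66) over activated Treg. Ifngr2, the second chain, was at 36.5 CPM against 18.4 CPM in Foxp3-negative Cd4 cells. Irf1, a transcription factor that interferons induce, was at 300 against 179 CPM, a log2 ratio of 0.75 (0.58 to 0.92), and fell short of 1.5-fold against activated Treg. Interferon-induced GTPase genes that were higher in both comparisons included Gbp2 (120 CPM against 59.1 in Foxp3-negative and 47.6 in activated cells), Gbp3, Gbp7 and Igtp. Igtp ran from 208 to 366 CPM in resting Treg and from 76.2 to 203 CPM in activated Treg, without overlap. Guanylate-binding protein genes resemble each other closely, so the split of reads among them is uncertain. Socs1, the feedback inhibitor, was at 310, 171 and 154 CPM in resting, activated and Foxp3-negative cells.

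Genes led by type I interferon had another pattern. Isg15, a ubiquitin-like protein, was at 543 CPM in members of Hashtag1 with a median of 49.8 CPM over the samples, 5 cells held 49.2% of its UMIs, and Hashtag1 was also the highest in activated Treg (538 CPM) and Foxp3-negative Cd4 cells (756 CPM). Usp18, the protease that removes it, was at 246 CPM in Hashtag1 and 14.1 to 52.1 CPM in the other 7. Ifit3 was at 223 CPM there with a median of 32.7. Ifngr1 was lowest in Hashtag1, at 201 CPM.

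**Figure D4:**
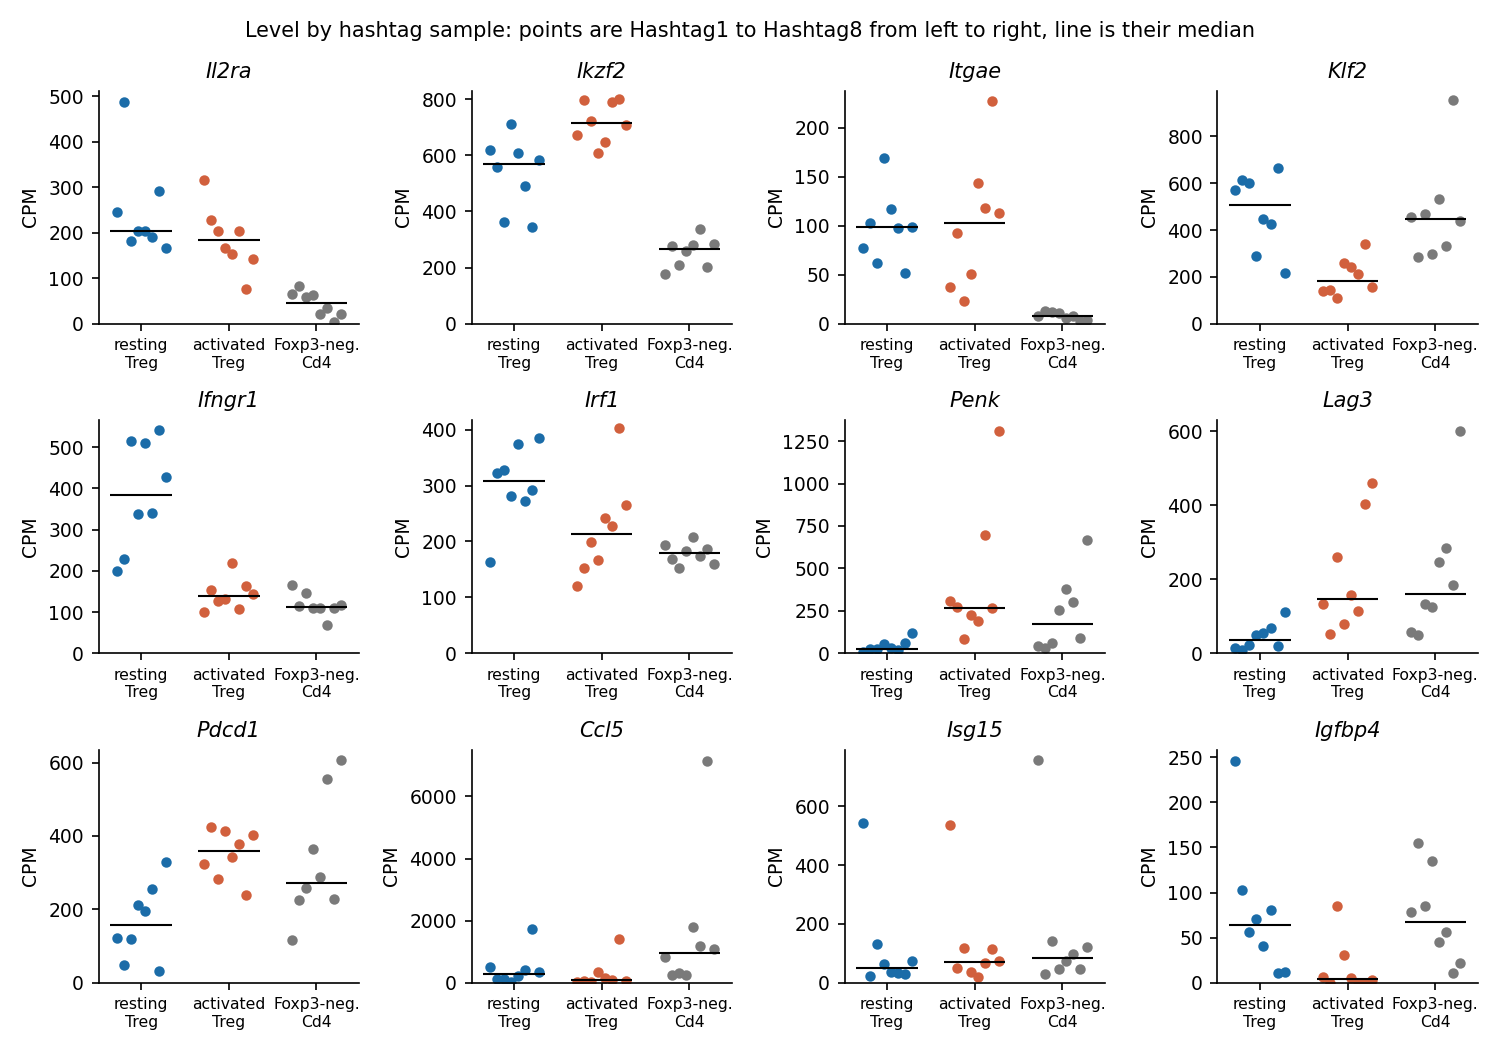
CPM of 12 genes in each of the 8 hashtag samples (points, Hashtag1 to Hashtag8 from left to right) of resting Treg, activated Treg and Foxp3-negative Cd4 cells, with the median as a line. Itgae and Ifngr1 are above the Foxp3-negative cells in every sample, and Isg15 is high in Hashtag1 of all 3 groups (543, 538 and 756 CPM).

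Transcripts of other cell types were looked for in the members. All 3 NK markers (Ncr1, Klrb1c and Klre1) were at 0, and gamma delta T cell markers summed to 5.32 CPM. Myeloid markers summed to 501 CPM, with hashtag values from 127 to 2317 CPM, and 5 cells held 68.2% of the UMIs. The same sum ran from 161 to 491 CPM in activated Treg and from 173 to 1057 CPM in Foxp3-negative Cd4 cells. The class II gene H2-Aa followed them, at 1530 CPM in Hashtag3 with a median of 78.6 CPM. Without the 89 members that had a class II, Lyz2 or Ms4a1 UMI (and such cells of the other groups), 17 of 30 Treg identity genes and 19 of 54 interferon genes were higher than in Foxp3-negative Cd4 cells, and 26 of 54 interferon genes were higher than in activated Treg. Over all genes, 5.41% were then higher than in Foxp3-negative Cd4 cells and 6.06% higher than in activated Treg. Of the B cell list, Cd79b was higher and Igkc lower than in both comparison groups. Ighm, the immunoglobulin mu chain, ran from 512 to 814 CPM in resting Treg and from 249 to 452 CPM in Foxp3-negative Cd4 cells without overlap, and was at 598 CPM in activated Treg. Its UMIs were spread over 312 of the 486 members, with 6.07% in the top 5 cells. Whether doublets or free RNA play a part in any of these levels was not tested.

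A T cell receptor was assembled for 383 of the 486 members (78.8%), and they had nearly as many receptors as cells. They fell into 381 deposited clonotypes, 379 of them with 1 member cell and 2 with 2 cells. Cells that shared a clonotype with another cell of their own group were 1.04% (0.285 to 2.65) of resting Treg, 5.13% (3.07 to 7.98) of activated Treg, 17.5% (15.6 to 19.6) of Foxp3-negative Cd4 cells and 24.2% (22.7 to 25.8) of Cd8 cells. Larger groups find more partners, so pairs of cells from the same hashtag were counted too: 2 of 9507 pairs of resting Treg shared a clonotype (0.0210%), against 0.158%, 0.443% and 0.268% of pairs in the other 3 groups. A deposited clonotype parts cells whose α chain was missed. By V segment, J segment and CDR3 nucleotides of the β chain (TRB) alone, in cells with 1 TRB, 6.69% (4.29 to 9.86) of resting Treg shared a receptor, against 10.5%, 24.0% and 34.2%. Of pairs from the same hashtag, 0.158% then shared a receptor, against 0.322%, 0.626% and 0.527%. As a ratio, resting Treg were thus closer to activated Treg by this definition. The share of cells ordered the 4 groups alike by both definitions, though the interval of resting Treg then overlapped that of activated Treg (7.32 to 14.4).

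**Figure D5:**
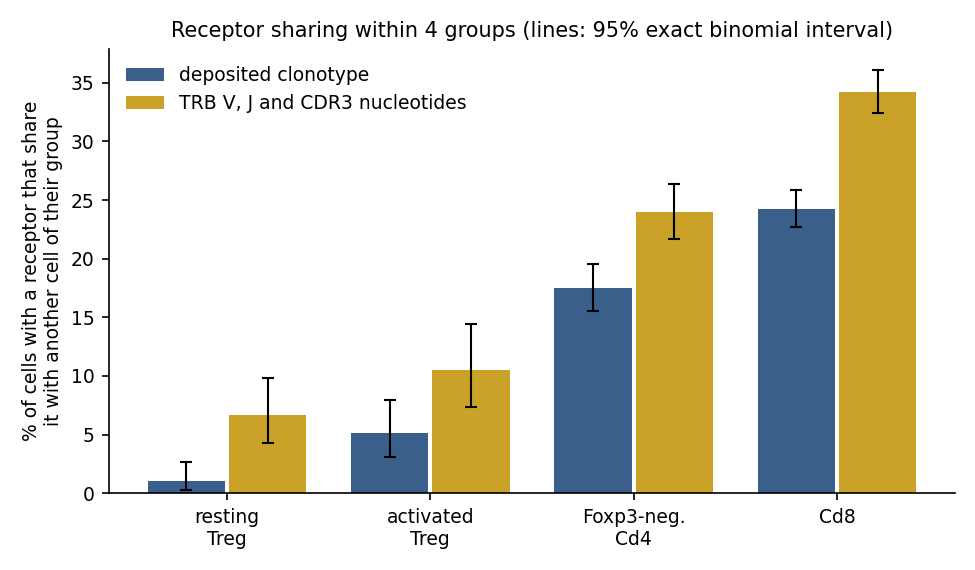
Percent of cells with a receptor that share it with another cell of their own group, by deposited clonotype (blue) and by TRB V, J and CDR3 nucleotides (yellow), with 95% exact binomial intervals. Resting Treg are lowest by both, at 1.04% and 6.69%.

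By TRB there were 11 receptors held by 2 or 3 resting Treg, and 10 of the 11 stayed within 1 hashtag sample. In 7 of them a cell without an assembled α chain was among the members. Of the 40 members (10.4%) whose deposited clonotype held at least 2 kept cells of any kind, 8 shared it with an activated Treg and 12 with a Foxp3-negative Cd4 cell of the same hashtag, and 1 of these with both. Across hashtags the counts were 0 and 1, from 351 activated and 1429 Foxp3-negative cells with a receptor. Sharing with Cd8 cells was at 2 members within and 2 across hashtags. The largest link was a Hashtag7 clonotype of 21 kept cells, 12 of them Foxp3-negative Cd4 cells, with 1 member that had 4 Foxp3 UMIs. How many Foxp3-negative partners are Treg with missed Foxp3 was not tested. By sample, the share of members in clonotypes of at least 2 kept cells was 0 of 33 members in Hashtag2, 6 of 30 in Hashtag7 and 8 of 46 (17.4%) in Hashtag8. The other 5 samples lay between, at 6.00% to 13.6%. Partners were sought among all kept cells, and larger samples offer more of them. Hashtag2 had 775 kept cells, Hashtag7 had 1991 and Hashtag8 had 1875. The 6 sequences below are examples, picked after their cells were known, of receptors that tie members to each other or to other groups. Each is the TRB CDR3 in nucleotides, 5′ to 3′, from the deposited contigs, with the codons at positions 6 and 7 in capitals, counted from the first cysteine codon (the centre of the loop that meets the peptide).
TRBV10 with TRBJ2-7, in 3 resting Treg of Hashtag4, with 2 different α chains among them: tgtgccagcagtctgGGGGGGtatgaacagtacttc
TRBV23 with TRBJ2-5, in 2 resting Treg of Hashtag3: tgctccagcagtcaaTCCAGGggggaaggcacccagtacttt
TRBV19 with TRBJ1-5, in 2 resting and 2 activated Treg of Hashtag8: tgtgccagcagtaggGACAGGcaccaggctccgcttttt
TRBV1 with TRBJ2-3, in 1 resting Treg, 1 activated Treg and 2 Foxp3-negative Cd4 cells of Hashtag6: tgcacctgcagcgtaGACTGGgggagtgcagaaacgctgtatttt
TRBV3 with TRBJ2-5, in 1 resting Treg and 12 Foxp3-negative Cd4 cells of Hashtag7: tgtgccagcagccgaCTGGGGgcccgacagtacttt
TRBV1 with TRBJ1-2, in 1 resting Treg each of Hashtag1 and Hashtag4 and 1 Cd8 cell: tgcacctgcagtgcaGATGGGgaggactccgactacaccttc
The last is the 1 of 332 TRB sequences of members that members of more than 1 hashtag sample held.

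Over clonotypes, the β chains of resting Treg used TRBV3 (10.2%, 7.23 to 13.9), TRBV5 (9.94%) and TRBV2 (8.48%, 5.75 to 11.9) most among the segments that could be named singly. For none of 22 segments did the interval part from that of Foxp3-negative Cd4 or activated Treg clonotypes, while 7 of 22, TRBV2 among them, parted from Cd8 clonotypes. CDR3 loops had a median of 14 codons in all 4 groups. A hydrophobic residue at position 6 or 7, a feature reported to favour self-reactive and regulatory cells, was present in 26.0% (21.5 to 31.0) of resting Treg clonotypes, 25.6% of activated Treg, 22.4% (20.02 to 24.9) of Foxp3-negative Cd4 and 26.5% of Cd8 clonotypes, with overlapping intervals. Both positions were hydrophobic in 2 of 342 resting Treg clonotypes (0.585%). The shares were 0.656%, 1.22% and 1.01% in activated Treg, Foxp3-negative Cd4 and Cd8 clonotypes. The invariant TRAV11 to TRAJ18 chain of natural killer T cells was found in 0 of 282 clonotypes with an α chain, which allows a share of up to 1.06% by a floor of 3 counts, and up to 1.30% by the exact interval.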

How the data were processed

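Gene values are counts: the authors deposited UMIs per gene and barcode, unscaled, from Cell Ranger 3.1.0 per the file headers, with genome names mm10 and GRCm38 per the submitters' processing notes. Receptor contigs and clonotypes were likewise deposited, as counts of UMIs and cells per the file headers. The authors' deposited text names Seurat 4.0.6 and an upper limit on UMIs per cell, run here as an alternative. No source used here says how intronic or antisense reads were counted. Foxp3 (chromosome X, 7573644 to 7595245, plus strand, GRCm38) overlaps Flicr on its own strand, so its UMIs could be shared.

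UMIs were summed per group and hashtag (1316420, 1743643 and 6362843 UMIs in resting Treg, activated Treg and Foxp3-negative Cd4 cells) and scaled to CPM with Python 3.11.15, NumPy 2.4.6, SciPy 1.17.1 and pandas 2.3.3. Log2 ratios carry exact conditional binomial intervals, and shares and levels carry Clopper-Pearson (exact binomial) intervals, all at 95%. Intervals cover counting error only, since cells of 1 library are not replicates. The ratio interval was tried on simulated Poisson counts, the model it assumes, so that trial does not speak to spread between cells. A gene counted as higher or lower at 1.5-fold or more with an interval that left out equality. Genes were named by rank (the 15 highest and 15 lowest with at least 50 CPM in 1 group and 50 UMIs over both, an interval beyond 1.5-fold and the same direction in all 8 hashtags) or from lists; Ighm, Igkc, Cd79b, Lyz2, H2-Aa, Mki67, Top2a and Cd44 were named after their values were seen. The members and lists were chosen with earlier results of these data known. No doublet caller was run beyond the hashtag rule. Of the lymph node barcodes 7 also occurred in the 2-month heart library and 0 in the 18-month one, none of them a member's; the heart libraries and the hashtag read sample were not used here. Some measured genes are not reported here.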

Additional observations from a re-analysis of the deposited data

Results flagged for a closer look

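For 72 values over the 8 hashtag samples of resting Treg, a sample was singled out where its gap to the nearest other sample was a large part of the whole range (Dixon's test at the 95% level). The test flags about 1 in 20 groups of independent values with a normal spread, and 16 were flagged. The genes had been picked for the text, some after their values were seen, so that rate is no yardstick for the 16. Hashtag1 stood high in Isg15 (543 CPM, next 130), Usp18 (246, next 52.1), Ifit3 (223, next 62.3), Ifi206 (123, next 62.5), Ifi213 (187, next 72.9), Slfn1 (392, next 217) and Igfbp4 (246, next 102). Hashtag2 stood high in Il2ra (488 CPM, next 292) and Socs2 (165, next 72.9), and Hashtag3 in H2-Aa (1530 CPM, next 492). Hashtag3 was low in Capg (283 CPM, next 427). Hashtag6 stood high in Ighm (814 CPM, next 651), Hashtag7 in Ccl5 (1720 CPM, next 511) and Nkg7 (208, next 92.4), and Hashtag8 in Tigit (304 CPM, next 162) and Igtp (366, next 277). The causes were not tested.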

How the results depend on the processing

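The share of resting Treg in kept cells was 2.07% with at least 2 Foxp3 UMIs, 8.52% with no exclusion of Ccr8, Tnfrsf9 and Il1r2, 3.81% with cells thinned to 1000 UMIs before the choice and, in an alternative chosen after seeing the data, 3.90% without cells with class II, Lyz2 or Ms4a1 UMIs. Leaving out 1 hashtag at a time gave 4.39% to 5.45%. The numbers of genes higher and lower than in Foxp3-negative Cd4 cells were 225 and 297 with cells thinned before the choice, 329 and 364 with the chosen cells thinned, and 366 higher with at least 100 UMIs per gene. Against activated Treg they were 81 and 165 with thinning before the choice and 282 and 466 with at least 100 UMIs, where fewer genes were tested. The share of members with a clonotype of another member was 0% with at least 2 Foxp3 UMIs and 0% with at least 500 genes per cell, 5.18% with no exclusion and 6.69% by TRB alone. It ran from 0.590% to 1.26% with 1 hashtag left out, the lowest without Hashtag4. The share with a partner among activated Treg of the same hashtag was 0% with at least 2 Foxp3 UMIs, a setting that also holds the activated Treg to 2 UMIs; 3 of the 8 members with such a partner have at least 2 themselves.

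Of 105 gene ratios past the 1.5-fold rule, 98 kept their sign under all alternatives run. Ccl5 against activated Treg was -0.63 with at least 2 Foxp3 UMIs. With no exclusion, Penk, Tigit and Bhlhe40 against Foxp3-negative Cd4 cells were 0.21, 0.49 and 0.032. Mki67 against activated Treg was 0.10 under the authors' filter and 0.20 with cells thinned before the choice, where it was 0.33 against Foxp3-negative Cd4 cells and Cd40lg was -0.051 against activated Treg. The causes were not tested. Apart from Dixon's test for single outlying samples, no test was run over the 8 hashtag samples, whose ages are not known here. Directions within samples are given as counts. Depth limits all shares of cells with a UMI, and a single UMI of Foxp3 decides membership.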
